A study of Homo sapiens with 4 samples.

Results

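The genes described here make cholesterol, bring it into the cell or control both. They are 27 genes in all: 18 enzymes from the first condensation of acetyl units to the last steps before cholesterol, 4 regulators of the transcription factor SREBP2, and 5 genes of uptake and transport inside the cell. They were taken by symbol from a list set by function, not by their values, and all 27 were found among the 59652 genes used. Several other enzymes and receptors that belong to this pathway are not analysed here. The libraries came from Huh7 and PLC, human hepatocellular carcinoma cell lines that the labels give as wild type. Each line was grown for 48 h in glucose-free medium with 10% fetal bovine serum to which either 5 mM (low-glucose) or 25 mM (high-glucose) glucose was added. Serum carries lipoprotein cholesterol, and all 4 cultures received it. There was 1 library for each line and glucose concentration, so no difference within a line has a replicate check, and every interval below covers counting error only.

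Cells make cholesterol in the endoplasmic reticulum from acetyl-CoA by way of mevalonate, squalene and lanosterol. When membrane sterol is low, the carrier SCAP takes SREBP2 to the Golgi, where proteases free the part that enters the nucleus and switches on nearly every gene of this route. When sterol is plentiful, the INSIG proteins hold SCAP back and the route is shut down. Liver cells are a main site of this synthesis, and INSIG1 is itself a target of SREBP2.

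Depth differed between the libraries, from 16049686 reads in high-glucose PLC cells and 21376239 in low-glucose Huh7 cells to 30085303 in high-glucose Huh7 and 30279716 in low-glucose PLC cells. Levels are given as FPKM (reads scaled by the length of the gene and by the total of the library), and the glucose ratio is the high-glucose FPKM over the low-glucose FPKM after 0.1 was added to both. A gene was examined in a line where its FPKM was over 0.5 in at least 1 of that line's libraries, and a ratio over 1.5 or under 0.67 was taken as past the limits, the limits the study used. The PLC pair moved more widely than the Huh7 pair over all genes, with 43.3% of 21749 genes past the limits in PLC and 27.8% of 21864 in Huh7 cells. Of 9 hepatocyte and liver tumour markers, 9 passed the FPKM filter in Huh7 and 8 in PLC cells, where AHSG had only 25 and 9 reads. Markers of blood cells, endothelium and fibroblasts were also looked at, and the blood cell marker PTPRC had 5 reads or fewer in every library. The endothelium marker PECAM1 passed the filter in Huh7 cells, at 2.37 and 2.55 FPKM in low and high glucose. The fibroblast marker COL3A1 passed it in PLC cells, at 0.67 and 1.30 FPKM. The other markers of these lists did not pass it in either line.

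The enzymes of cholesterol synthesis had opposite glucose ratios in the lines. All 18 were lower in high glucose in Huh7 cells, with ratios of 0.557 to 0.946, and all 18 were higher in high glucose in PLC cells, with ratios of 1.16 to 4.83. These directions were the same for all 18 under TMM and DESeq2 scaling of the libraries. For 15 of the 18, the 95% counting intervals of both ratios lay wholly on their own side of 1. The exceptions were PMVK, TM7SF2 and NSDHL, whose intervals in Huh7 cells included 1. The summed CPM (counts scaled by the total of the library) of the 18 enzymes was 3792 in low-glucose and 2811 in high-glucose Huh7 cells, and 1179 in low-glucose and 2169 in high-glucose PLC cells. Huh7 cells thus held the highest summed level in low glucose, and PLC cells the lowest. In such bulk libraries, fewer cells that express a gene and less RNA per cell cannot be told apart.

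Over all 27 genes, 24 had a ratio below 1 in Huh7 cells, beside 46.3% of all genes examined, and the counting interval lay below 1 for 21, beside 19.4%. In PLC cells, 26 genes passed the FPKM filter, and 24 had a ratio above 1, beside 56.5% of all genes, a count that was 21 under TMM and 22 under DESeq2 scaling. The interval lay above 1 for 23 of the 26 in PLC cells, beside 33.2% of all genes. In 19 of 26 genes the interval lay below 1 in Huh7 and above 1 in PLC cells, beside 5.17% of 18108 genes examined in both lines. The reverse, higher in Huh7 and lower in PLC cells, was seen in 0 of 26 genes, beside 5.06% of all genes. Under TMM scaling the intervals of SCAP lay in this reverse order. The ratio in PLC cells exceeded that in Huh7 cells in 24 of 26 genes, beside 53.5%.

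Fewer of the genes passed the limits of 1.5 and 0.67. In Huh7 cells 5 of 27 were under 0.67 (MVD, LSS, DHCR7, STARD4 and NPC2), beside 13.7% of all genes, and only MYLIP was over 1.5, beside 14.1%, a count that was 0 with 1 in place of 0.1 added to the FPKM. In PLC cells 16 of 26 were over 1.5, beside 26.2%, and only NPC1 was under 0.67, beside 17.0%. MVD, DHCR7 and STARD4 passed the limits in opposite directions, 3 of 26 genes, beside 5.19% of all genes. The median log2 ratio of the genes was -0.31 in Huh7 cells, beside 0.04 over all genes, and 0.75 in PLC cells, beside 0.11. TMM scaling lowered the log2 ratios, before the constant is added, by 0.03 in Huh7 and by 0.16 in PLC cells.

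**Figure D1:**
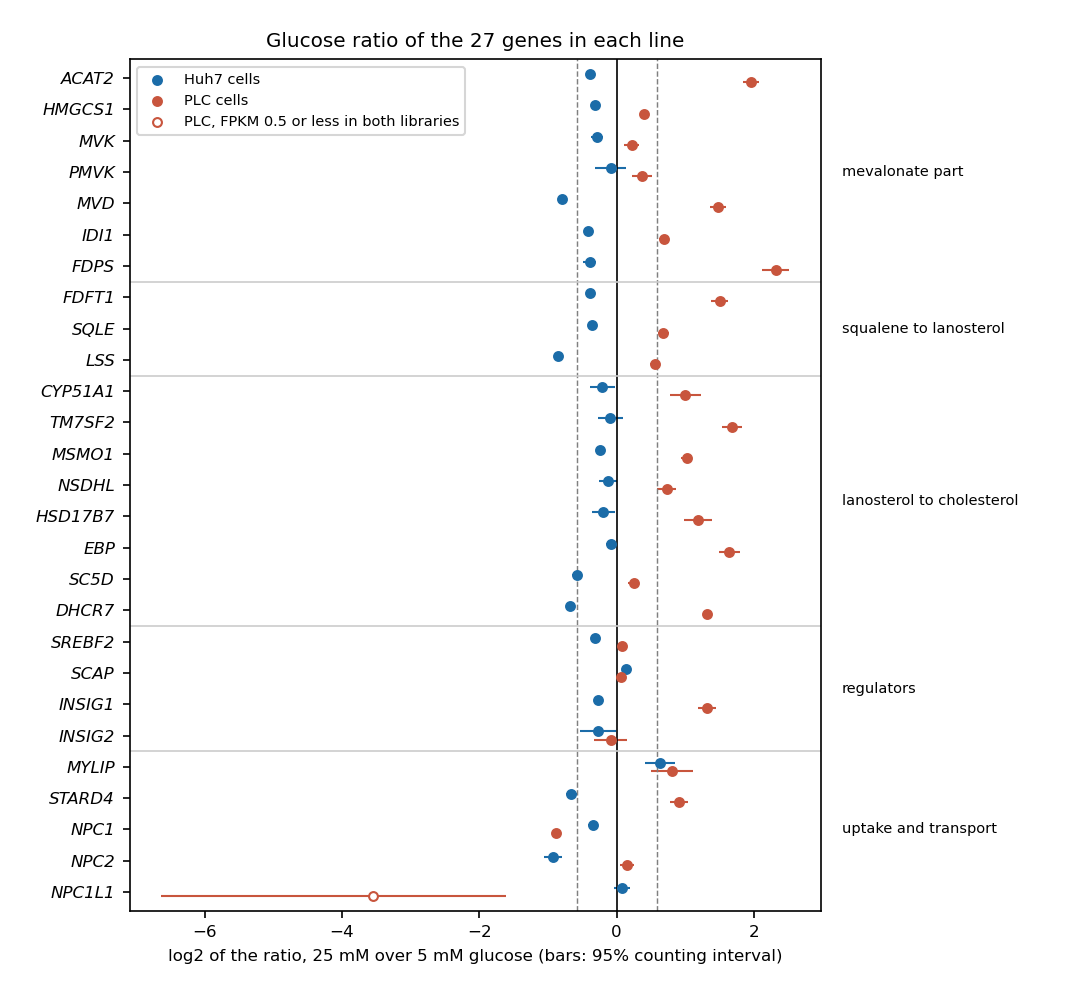
The horizontal axis is the log2 ratio of high-glucose (25 mM) to low-glucose (5 mM) level without an added constant, and each row is a gene, grouped by role. Points are the ratios in Huh7 (blue) and PLC cells (red), bars are 95% counting intervals from 1 library per condition, and dashed lines mark ratios of 0.67 and 1.5. All 18 enzymes lie left of the line for a ratio of 1 in Huh7 and right of it in PLC cells, and the open PLC point of NPC1L1 did not pass the FPKM filter.

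Many weakly read genes have wide ratios, so the genes were also set beside the 9754 genes with at least 100 reads in every library and past the FPKM filter in both lines. Among genes read this deeply, only 6.77% passed the limits in Huh7 cells and 3.49% were under 0.67, while 16.0% were over 1.5 in PLC cells. Of the 26 genes with this depth, 6 lay below 0.715, the 5th percentile of such ratios in Huh7 cells, and 20 lay below the 25th percentile of 0.910. In PLC cells 9 lay above 2.12, the 95th percentile, and 18 above the 75th percentile of 1.31. Opposite intervals, lower in Huh7 and higher in PLC cells, were found in 7.51% of the deeply read genes. Opposite changes past the limits, in either order, were found in 0.41% of them, beside the 3 of 26 given above.

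**Figure D2:**
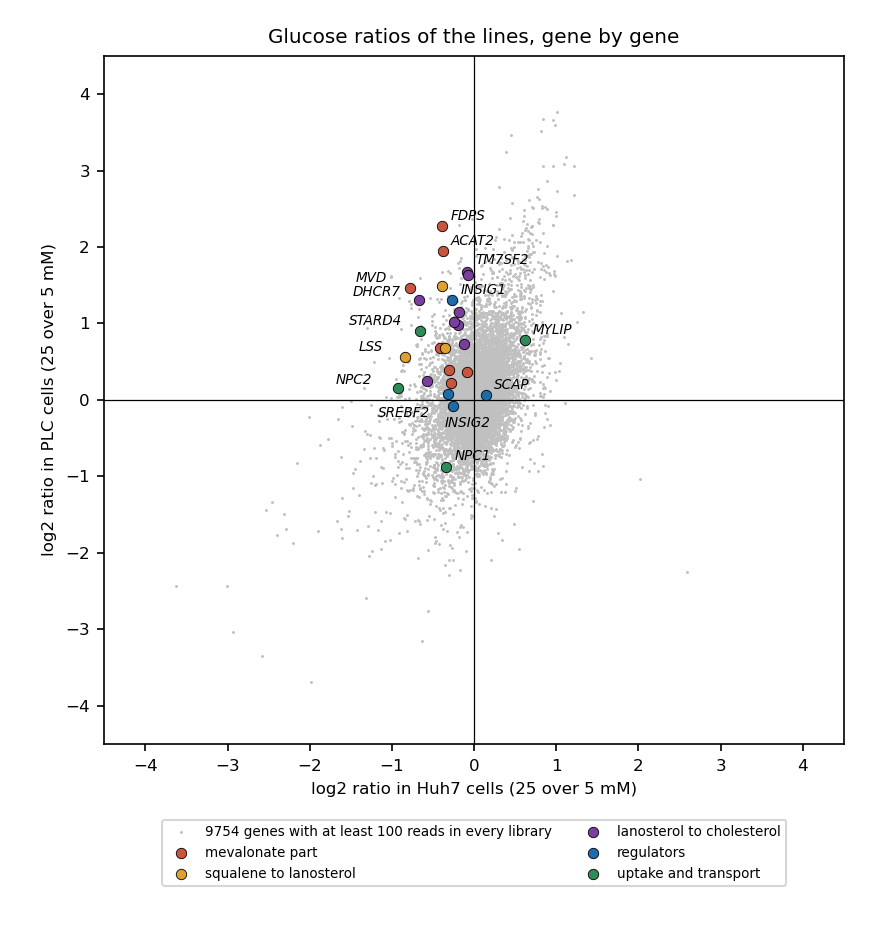
Each grey point is 1 of 9754 genes with at least 100 reads in every library, placed by its log2 glucose ratio (0.1 added to FPKM) in Huh7 (horizontal) and in PLC cells (vertical). Coloured points are the 26 described genes at this depth, most of them in the upper left, where a gene was lower in high-glucose Huh7 and higher in high-glucose PLC cells.

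The promoters of 24 of the 27 genes were held by the RefSeq promoter table (GRCh38.p14), which gives 250 bases before and 50 after each start. Those of ACAT2, FDFT1 and SQLE were not in it. Shown here are the 250 bases before the start, 5′ to 3′ on the gene's own strand, of FDPS, SREBF2, INSIG1 and SCAP, from the first window listed. FDPS had the highest ratio in PLC cells. SREBF2 and INSIG1 hold a short sterol element before the start in this window, as IDI1 and SC5D do in another of their windows. SCAP had the ratios closest to each other in the lines when scaled by library totals. Capitals mark the short sterol element CACNCCAC, the NF-Y box CCAAT, the SP1 box GGGCGG and the E-box CACGTG, each in either orientation. In order, the stretches are chr1:155308616-155308865 on the plus strand, chr22:41832855-41833104 on the plus strand, chr7:155297628-155297877 on the plus strand and chr3:47475942-47476191 on the minus strand.
FDPS: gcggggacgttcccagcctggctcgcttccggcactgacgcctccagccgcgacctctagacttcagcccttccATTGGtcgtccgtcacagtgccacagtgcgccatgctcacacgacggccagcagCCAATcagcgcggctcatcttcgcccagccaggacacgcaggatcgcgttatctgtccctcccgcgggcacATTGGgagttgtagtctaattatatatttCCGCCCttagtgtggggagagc
SREBF2: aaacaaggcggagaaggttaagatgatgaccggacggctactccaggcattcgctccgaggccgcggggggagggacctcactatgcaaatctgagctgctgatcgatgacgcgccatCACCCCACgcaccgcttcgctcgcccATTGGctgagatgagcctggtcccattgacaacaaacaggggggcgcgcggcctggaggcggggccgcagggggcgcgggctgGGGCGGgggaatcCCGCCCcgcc
INSIG1: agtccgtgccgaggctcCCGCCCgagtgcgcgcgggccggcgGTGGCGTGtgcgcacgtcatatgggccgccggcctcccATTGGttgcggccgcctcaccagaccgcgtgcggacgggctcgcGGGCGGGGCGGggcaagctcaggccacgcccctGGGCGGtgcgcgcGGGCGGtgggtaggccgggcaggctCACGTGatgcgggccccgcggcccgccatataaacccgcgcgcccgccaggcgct
SCAP: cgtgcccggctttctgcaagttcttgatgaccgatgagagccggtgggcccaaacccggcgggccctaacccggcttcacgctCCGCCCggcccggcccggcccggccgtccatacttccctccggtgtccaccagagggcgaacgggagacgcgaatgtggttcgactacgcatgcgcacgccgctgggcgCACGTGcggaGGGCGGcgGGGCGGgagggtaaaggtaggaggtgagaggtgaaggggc

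The FDPS stretch holds 3 NF-Y boxes and 1 SP1 box, and no sterol element in these letters. SREBF2 holds the short sterol element with its first base at position -132 from the start, followed by 1 NF-Y box, and INSIG1 holds it at position -208, on the other strand. SCAP holds 3 SP1 boxes and an E-box, and neither an NF-Y box nor a sterol element. SREBP2 binds sterol elements only weakly by itself and is known to work together with NF-Y and SP1 bound nearby.

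Over whole windows, counting a gene once if any of its windows held the motif on either strand, the NF-Y box was present in 19 of 24 genes (79.2%). It was present in 39.7% of all 27305 genes of the table, and in 43.6% of the 10470 protein-coding genes of the table with FPKM over 0.5 in at least 1 library. The SP1 box was present in 22 of 24 (91.7%), beside 48.3% of all genes and 74.8% of the expressed protein-coding genes. The full sterol element TCACNCCAC was present in 1 of 24, SREBF2, beside 1.39% of all genes, and the shorter form CACNCCAC, which the full one contains, in 4 of 24 (IDI1, SC5D, SREBF2 and INSIG1), beside 7.05%. The E-box was present in 4 of 24 (LSS, SC5D, SCAP and INSIG1), beside 8.77% of all genes. Among the expressed protein-coding genes, the full sterol element was present in 1.45%, the shorter form in 7.71% and the E-box in 12.3%. The genes without an NF-Y box in any window were PMVK, CYP51A1, SCAP, INSIG2 and NPC1. These are matches of letters in a short window and not binding sites.

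Of the 7 enzymes of the mevalonate part, which leads from acetyl units to farnesyl diphosphate, FDPS had the highest ratio in PLC cells. FDPS makes farnesyl diphosphate, the branch point to sterols and other isoprenoids. Its level was 23.4 and 17.9 FPKM in low- and high-glucose Huh7 cells and 2.55 and 12.7 FPKM in low- and high-glucose PLC cells. The ratio was 0.764 (95% interval 0.716 to 0.813) in Huh7 and 4.83 (4.34 to 5.72) in PLC cells, so that the low-glucose PLC library stood far below the other 3. FDPS shares 18.6% of its exon length with RUSC1-AS1 on the other strand, which had 90 and 75 reads in low- and high-glucose PLC cells, beside 287 and 757 for FDPS. Whether the counting used strand is not given in the sources used here.

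ACAT2, the cytosolic thiolase that joins the first pair of acetyl units, followed the same pattern. It stood at 81.0 and 62.0 FPKM in low- and high-glucose Huh7 cells and at 12.2 and 47.4 FPKM in PLC cells. Its ratios were 0.766 (0.735 to 0.797) and 3.86 (3.59 to 4.19). ACAT2 shares 17.2% of its exon length with TCP1 on the other strand, which had 10761 and 6054 reads in low- and high-glucose PLC cells, beside 975 and 2006 for ACAT2.

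MVD, which decarboxylates mevalonate diphosphate, passed the limits in both lines. Its level was 44.5 and 25.8 FPKM in Huh7 and 6.86 and 19.1 FPKM in PLC cells, low glucose first, with ratios of 0.580 (0.554 to 0.605) and 2.76 (2.56 to 3.02). HMGCS1, the cytosolic synthase that makes HMG-CoA, had the highest level of the 27 genes in both Huh7 libraries, at 151 and 121 FPKM, and stood at 30.4 and 40.0 FPKM in PLC cells. Its ratios were nearer 1, at 0.806 (0.791 to 0.821) and 1.31 (1.27 to 1.37). HMGCS1 shares 37.7% of its exon length on the other strand with AC114947.2, which had 0 reads in every library.

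The kinases of mevalonate and of its phosphate had ratios nearer 1 than most enzymes of this part. MVK was at 13.6, 11.2, 8.36 and 9.73 FPKM and PMVK at 12.8, 12.1, 30.5 and 39.5 FPKM in low- and high-glucose Huh7 and low- and high-glucose PLC cells, with PLC ratios of 1.16 and 1.29. IDI1, which isomerizes the activated isoprene unit, had ratios of 0.751 in Huh7 and 1.61 in PLC cells, the latter 1.43 under TMM scaling, and shares 14.8% of its exon length with IDI2-AS1 on the other strand. PMVK was alone among these 7 in having a higher level in PLC than in Huh7 cells at both glucose concentrations beyond the counting interval.

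From squalene to lanosterol, FDFT1, SQLE and LSS all had intervals below 1 in Huh7 and above 1 in PLC cells. FDFT1, squalene synthase, the first step committed to sterols, was at 50.0 and 38.2 FPKM in Huh7 and 5.73 and 16.2 FPKM in PLC cells, a PLC ratio of 2.80 (2.60 to 3.08). SQLE, squalene epoxidase, an oxygen-dependent and rate-limiting step, was at 59.2 and 46.4 FPKM in Huh7 and 24.0 and 38.5 FPKM in PLC cells. Its PLC ratio of 1.60 (1.52 to 1.69) became 1.43 under TMM scaling, below the limit. LSS, which closes the ring system of lanosterol, was at 41.3 and 23.0 FPKM in Huh7 and at 15.9 and 23.4 FPKM in PLC cells. LSS had the lowest Huh7 ratio of the 18 enzymes, 0.557 (0.535 to 0.577), and a PLC ratio of 1.47 (1.40 to 1.55), just inside the limit.

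**Figure D3:**
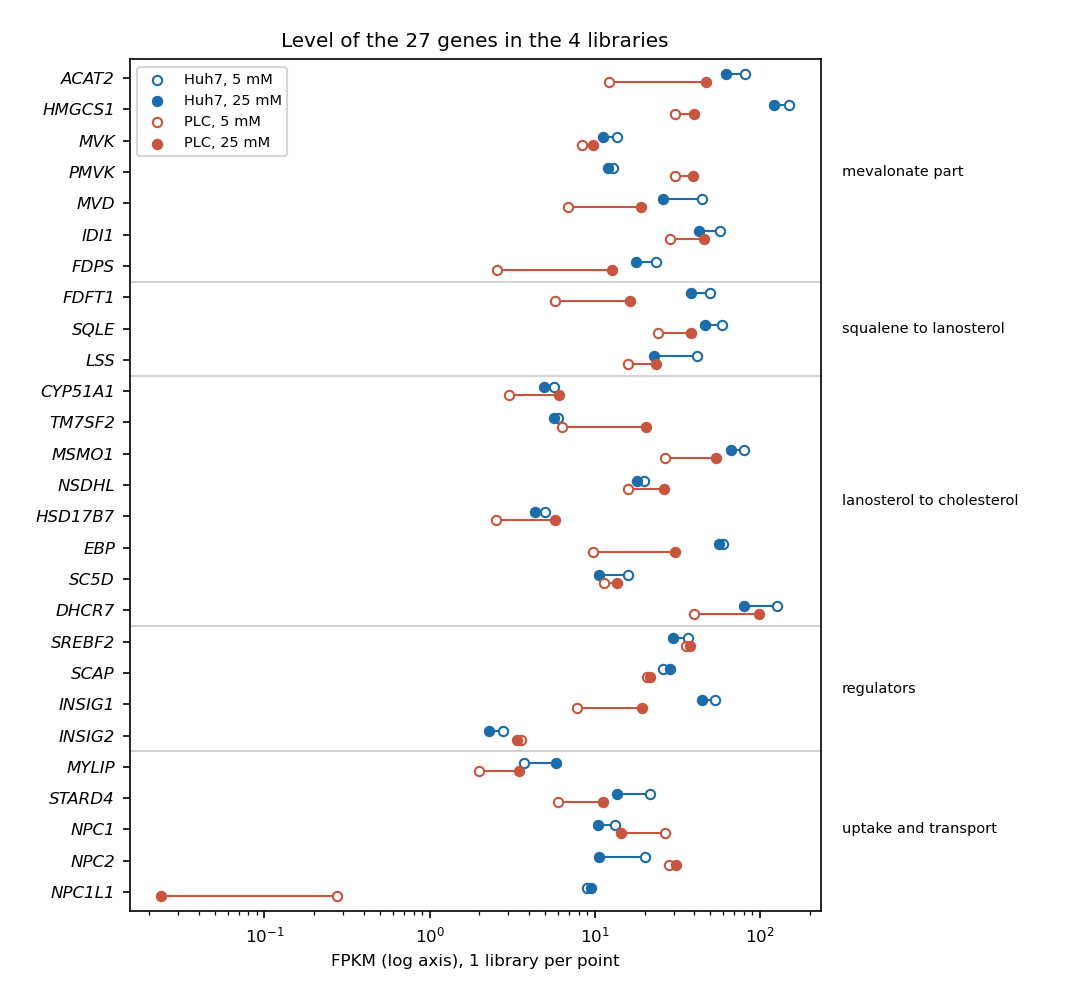
The horizontal axis is the FPKM on a log scale, and each row is a gene, grouped by role. Open points are low-glucose (5 mM) and filled points high-glucose (25 mM) libraries of Huh7 (blue) and PLC (red), 1 library each, joined by a line within each cell line. In most enzyme rows the open red point is the lowest and the filled points of the lines lie nearer to each other than the open ones.

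The 8 enzymes from lanosterol to cholesterol were all higher in high-glucose PLC cells, and 7 of them, all but SC5D, passed 1.5. DHCR7, which reduces 7-dehydrocholesterol to cholesterol, was the most abundant of the 27 genes in both PLC libraries. Its level was 127 and 79.5 FPKM in Huh7 and 39.7 and 98.5 FPKM in PLC cells, with ratios of 0.627 (0.610 to 0.644) and 2.48 (2.39 to 2.57). The order of the lines was thus turned around, with Huh7 cells higher in low glucose and PLC cells higher in high glucose.

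TM7SF2 and EBP had the highest PLC ratios of these 8 and Huh7 ratios close to 1. TM7SF2, a sterol reductase, was at 5.98 and 5.63 FPKM in Huh7 and 6.33 and 20.3 FPKM in PLC cells, a PLC ratio of 3.17 (2.91 to 3.54). EBP, the isomerase that shifts a ring double bond, was at 60.1 and 56.8 FPKM in Huh7 and 9.81 and 30.6 FPKM in PLC cells, a PLC ratio of 3.10 (2.80 to 3.49). The Huh7 ratios were 0.941 (0.829 to 1.07) for TM7SF2 and 0.946 (0.895 to 0.999) for EBP. EBP shares 36.4% of its exon length on the same strand with AF196969.1, which had 3 to 24 reads, so its level is less certain.

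CYP51A1, the lanosterol demethylase, MSMO1, which oxidizes the methyl groups left on the ring, and HSD17B7, a ketoreductase acting with it, had PLC ratios of 1.97, 2.03 and 2.22 and Huh7 ratios of 0.869, 0.842 and 0.877. CYP51A1 shares 80.6% of its exon length on the same strand with AC000120.3, which had 0 reads in every library, and how reads in shared exons were counted is not given in the sources used here, so its level is uncertain. HSD17B7 has a copy, HSD17B7P2, that was read 46 to 98 times beside 365 to 624 for HSD17B7. MSMO1 was the most abundant of these 3, at 79.6, 67.0, 26.7 and 54.2 FPKM in low- and high-glucose Huh7 and low- and high-glucose PLC cells. NSDHL, the decarboxylase of the same step, had a PLC ratio of 1.65, which TMM scaling brought to 1.48. SC5D, the desaturase that makes 7-dehydrocholesterol, had the lowest PLC ratio of the 8, 1.19 (1.13 to 1.26), and a Huh7 ratio of 0.671 (0.637 to 0.702), which TMM scaling brought to 0.658. Among the enzymes, then, the size of the ratio varied from gene to gene in each line, while the side of 1 on which it lay did not. For PMVK, TM7SF2 and NSDHL in Huh7 cells the counting interval included 1. So did that of MVK in PLC cells under TMM and DESeq2 scaling.

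Of the 4 regulators, INSIG1 alone passed a limit. INSIG1, the sterol-sensitive anchor of SCAP, was at 53.3 and 44.3 FPKM in low- and high-glucose Huh7 and at 7.76 and 19.3 FPKM in PLC cells. Its ratios were 0.832 (0.798 to 0.867) and 2.47 (2.27 to 2.72), and its low-glucose PLC library again stood far below the rest. INSIG2, which works as an anchor in the same way but is not a classical SREBP2 target, was low in every library, at 2.77, 2.30, 3.56 and 3.36 FPKM, with ratios of 0.835 (0.694 to 0.991) and 0.945 (0.796 to 1.11).

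SREBF2, the gene of SREBP2, was at 36.7 and 29.5 FPKM in Huh7 and at 35.7 and 37.5 FPKM in PLC cells. Its ratio was 0.805 (0.776 to 0.833) in Huh7 and 1.05 (1.01 to 1.09) in PLC cells, where it was 0.938 under TMM and 0.959 under DESeq2 scaling, so that no direction can be given in PLC cells. SCAP was at 25.7 and 28.4 FPKM in Huh7 and at 20.6 and 21.6 FPKM in PLC cells. Its ratio was 1.10 (1.06 to 1.15) in Huh7 and 1.04 (0.991 to 1.10) in PLC cells, where it was 0.932 under TMM and 0.953 under DESeq2 scaling. The transcripts of SREBF2 and SCAP thus differed between glucose concentrations far less than those of INSIG1 and most enzymes in PLC cells. Transcript level says nothing of how much SREBP2 is cut and enters the nucleus, which was not measured in these libraries.

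The 5 genes of uptake and transport went several ways. STARD4, a soluble protein that carries cholesterol between membranes, had ratios on the same sides of 1 as the enzymes. It was at 21.7 and 13.7 FPKM in Huh7 and at 5.97 and 11.2 FPKM in PLC cells, with ratios of 0.633 (0.597 to 0.668) and 1.86 (1.72 to 2.05). MYLIP, a ubiquitin ligase that marks lipoprotein receptors for breakdown and is induced by the sterol-sensing LXR receptors, was higher in high glucose in both lines. It stood at 3.75 and 5.79 FPKM in Huh7 and at 1.99 and 3.49 FPKM in PLC cells, with ratios of 1.53 (1.33 to 1.80) and 1.72 (1.42 to 2.17).

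NPC1 and NPC2 together move cholesterol out of lysosomes after lipoprotein uptake, and their ratios differed from each other. NPC1, the membrane protein, was at 13.3 and 10.5 FPKM in Huh7 and at 26.6 and 14.5 FPKM in PLC cells. Its ratios were 0.791 (0.750 to 0.832) and 0.547 (0.520 to 0.571), so that it was lower in high glucose in both lines. NPC2, the soluble partner, was at 20.2 and 10.6 FPKM in Huh7 and at 27.9 and 31.0 FPKM in PLC cells, with ratios of 0.527 (0.479 to 0.575) and, in PLC cells, 1.11 (1.04 to 1.19), which TMM scaling brought to 0.991. NPC2 had the lowest Huh7 ratio of the 27 genes.

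NPC1L1, which takes up free cholesterol at the apical membrane of gut and human liver cells, was read almost only in Huh7 cells. It had 1015 and 1511 reads in low- and high-glucose Huh7 and 44 and 2 reads in low- and high-glucose PLC cells. Its Huh7 ratio was 1.06 (0.976 to 1.15). In PLC cells, 0.276 and 0.0237 FPKM did not pass the filter, and the ratio of these levels was 0.0858 (0.0101 to 0.329) without an added constant, on very few reads.

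The glucose ratio in PLC cells divided by that in Huh7 cells gives the difference of the lines for each gene. For the enzymes it ran from 1.38 (1.14 to 1.66) for PMVK to 6.52 (5.60 to 7.61) for FDPS, and its counting interval lay above 1 for all 18. Over all genes examined in both lines, 53.5% had a higher ratio in PLC cells, and the share with such an interval was not computed. These values use library totals. TMM scaling lowers the log2 ratio by 0.16 in PLC and 0.03 in Huh7 cells and so would make them all smaller. ACAT2 at 5.07 and MVD at 4.80 came next, with intervals of 4.65 to 5.53 and 4.38 to 5.27 that overlapped each other. DHCR7 at 3.96 (3.78 to 4.14) and FDFT1 at 3.70 (3.38 to 4.07) also overlapped. Outside the enzymes, INSIG1 had 2.99 (2.71 to 3.30), STARD4 2.98 (2.68 to 3.30), NPC2 2.12 (1.89 to 2.38) and SREBF2 1.31 (1.24 to 1.38). The intervals of SCAP (0.886 to 1.01), INSIG2 (0.889 to 1.46) and MYLIP (0.871 to 1.48) included 1, and that of NPC1 lay below it (0.643 to 0.740). For SCAP this rested on scaling by library totals. Under TMM scaling its ratios were 1.08 in Huh7 and 0.932 in PLC cells, with intervals on opposite sides of 1. With 1 library per condition there is no test of this difference.

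At 5 mM glucose, Huh7 cells had the higher level of 16 of 18 enzymes, with a median Huh7 to PLC ratio of 2.53, and of 22 of the 27 genes, beside 52.2% of all genes. At 25 mM, Huh7 cells had the higher level of 9 of 18 enzymes, with a median ratio of 1.06, and of 14 of the 27 genes, beside 49.4%. More than 2-fold differences in favour of Huh7 cells were seen for 11 of 18 enzymes in low glucose, beside 6244 of 23485 genes. In high glucose they were seen for 2, HMGCS1 at 3.03 (2.94 to 3.14) and FDFT1 at 2.36 (2.22 to 2.50), beside 5489 of 23824 genes. Among genes with at least 100 reads in every library, 1370 of 9772 differed so in low and 1008 of 9774 in high glucose. For FDPS the Huh7 to PLC ratio went from 9.19 (8.11 to 10.4) in low to 1.41 (1.30 to 1.53) in high glucose. PMVK, at 0.421 and 0.306, and in high glucose TM7SF2, at 0.277, were more than 2-fold higher in PLC cells. By the median, the lines were therefore closer in the enzyme transcripts in high glucose than in low glucose. Not every gene followed this. PMVK, TM7SF2 and NSDHL lay further apart in high glucose, TM7SF2 from 0.945 to 0.277 and NSDHL from 1.26 to 0.693. Outside the enzymes, SREBF2, SCAP, INSIG2, NPC2 and NPC1L1 did so as well.

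A model with terms for the line and for glucose left 1 residual degree of freedom. It takes the glucose change as the same in both lines, and opposite changes cancel in it. In this fit (edgeR quasi-likelihood test, with the line as a term, Benjamini-Hochberg adjustment over 23217 genes), 0 of the 27 genes had an adjusted p under 0.05 for glucose, beside 0.0646% of all genes called higher and 0.314% called lower. DESeq2 and limma-voom also called 0 of 27. At an unadjusted p under 0.05 in edgeR, 1 of the 27 genes passed, beside 1975 of 23217 over all genes. This was NPC1, with a log2 fold change of -0.69 (SE 0.23), a p of 0.0099 and an adjusted p of 0.307 in edgeR.

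For the difference between the lines over both glucose concentrations, the same edgeR fit called 16 of 27 genes at an adjusted p under 0.05. Of these, 12 were higher in Huh7 cells, beside 21.8% of all genes, and 4 higher in PLC cells, beside 21.1%. The 12 were ACAT2, HMGCS1, MVD, FDPS, FDFT1, SQLE, MSMO1, EBP, INSIG1, MYLIP, STARD4 and NPC1L1, and the 4 were PMVK, TM7SF2, NPC1 and NPC2. HMGCS1 had a log2 fold change (Huh7 over PLC) of 1.95 (SE 0.22, adjusted p 9.14e-06 in edgeR), and INSIG1 one of 1.98 (SE 0.32, adjusted p 0.000236). NPC1L1 had the largest, 5.94 (SE 0.54, adjusted p 1.61e-06 in edgeR), and NPC2 had -1.01 (SE 0.28, adjusted p 0.00938). The 2 libraries of a line were not replicate cultures, and without the glucose term the same test called 6 of 27 genes, beside 19.1% of all genes called higher and 18.9% called lower in Huh7 cells.

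Other genes around the pathway were counted whole, in 8 lists that together hold 51 genes. In Huh7 cells 44 of them were examined, of which 0 were over 1.5 and 4 under 0.67, beside 14.1% and 13.7% of all genes. In PLC cells 42 were examined, of which 5 were over 1.5 and 3 under 0.67, beside 26.2% and 17.0%. The edgeR fit called 0 of them higher and 1 lower in high glucose, VLDLR. Their median log2 ratios were 0.05 in Huh7 and 0.04 in PLC cells. Intervals below 1 in Huh7 and above 1 in PLC cells were found in 7 of 42, beside 5.17% of all genes, and the reverse in 4 of 42, beside 5.06%.

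The isoprenoid branch, which uses farnesyl diphosphate for prenylation, dolichol and ubiquinone, had ratios nearer 1. Of its 10 genes, 8 had a ratio above 1 in Huh7 cells, beside 53.7% of all genes, and 3 in PLC cells, beside 56.5%, and 0 passed a limit in either line. COQ2, which joins the prenyl tail to the ring of ubiquinone, was the 1 gene with ratios on the same sides as the sterol enzymes, at 0.917 (0.802 to 1.05) and 1.18 (1.05 to 1.34), and was named after its values were seen. Among the partner enzymes, LBR, which carries a sterol reductase domain like that of TM7SF2, had ratios of 1.26 (1.22 to 1.31) and 1.83 (1.74 to 1.94), above 1 in both lines. ERG28, a scaffold of the sterol demethylation enzymes in the same list, had ratios of 0.720 (0.664 to 0.779) and 1.87 (1.71 to 2.06), and was named after its values were seen.

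Of the 10 genes that process SREBP2 or belong to the sterol-controlled degradation machinery, 2 were lower in Huh7 and higher in PLC cells and 5 the reverse. MBTPS1, the site 1 protease, had ratios of 1.01 (0.969 to 1.05) in Huh7 and 1.54 (1.46 to 1.65) in PLC cells, and MBTPS2, the site 2 protease, had 0.910 (0.862 to 0.959) and 1.34 (1.28 to 1.41). SREBF1, the gene of the SREBP form that mainly serves fatty acid synthesis, had 0.927 (0.895 to 0.960) in Huh7 and 1.28 (1.20 to 1.37) in PLC cells. ABCA1, which exports cholesterol to lipoproteins, had 0.934 (0.908 to 0.960) and 1.17 (1.06 to 1.31). SPRING1, which aids the activation of the site 1 protease, was under 1 in both lines, at 0.626 (0.581 to 0.666) and 0.828 (0.768 to 0.889), and was named after its values were seen.

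SOAT1, which esterifies cholesterol for storage, had ratios of 1.17 and 1.10. SOAT2, the form typical of liver and gut, had a Huh7 ratio of 0.669 (0.563 to 0.783) and 1 and 0 reads in low- and high-glucose PLC cells. Past the limits in both lines were the lipoprotein receptor gene VLDLR, with ratios of 0.363 in Huh7 and 0.283 in PLC cells, and GRAMD1A, a carrier of plasma membrane sterol, with 0.666 and 0.477. Both were lower in high glucose in both lines, unlike any of the enzymes.

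Hepatocyte markers moved in PLC cells as well. All 8 examined had a ratio above 1 there, beside 56.5% of all genes, though KRT8, KRT18 and HNF4A, at 1.02, 1.08 and 1.10, lay within the shift of TMM scaling given above, and 4 of them were over 1.5, beside 26.2%, namely AFP at 3.30 (3.25 to 3.35), APOA1 at 3.46 (2.31 to 6.30), FGB at 1.97 (1.93 to 2.02) and FGA at 1.52. In Huh7 cells 7 of 9 were above 1, beside 53.7%, where the enzymes were below 1. The part of these markers in the PLC result was not tested.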

How the data were processed

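The deposited table held raw read counts per gene for 4 libraries, made by the authors from rRNA-depleted total RNA. Per the labels, the submitters' processing notes name HISAT2, featureCounts and hg38. Versions, annotation release and strand setting are not given in the sources used here. Of 59657 lines, 5 were left out because they held a broken entry for a gene not described here. Every further value was computed from these counts in Python 3.11.15 and R 4.3.3: FPKM from each library's total and the gene length of the table, high- over low-glucose ratios with 0.1 added, and exact binomial (Clopper-Pearson) 95% intervals of the ratio without the added constant (exact conditional odds ratio intervals for the difference between lines). The joint fit used edgeR 4.0.16 (TMM, filterByExpr, line plus glucose, 1 residual degree of freedom), with DESeq2 1.42.0 and limma 3.58.1 as alternatives. The scripts were tested on simulated data. Gene identity was checked against GENCODE 44, and motifs were searched in RefSeq promoters. The genes, lists and tests were chosen with earlier results of these data known. All 27 genes are named. Of the surrounding lists, the genes named are those past the limits in both lines together with LBR, SREBF1, MBTPS1, MBTPS2, ABCA1, SOAT1 and SOAT2. COQ2, ERG28 and SPRING1 were added to these after their values were seen. Comparison with genes of at least 100 reads was added after seeing the data. The table holds 1 library for each line and glucose concentration.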

Additional observations from a re-analysis of the deposited data

Results flagged for a closer look

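For 19 of the 27 genes the counting intervals put the high-glucose library below the low-glucose library in Huh7 cells and above it in PLC cells. This difference was not tested, as there is 1 library for each line and concentration. The ratio in PLC cells over the ratio in Huh7 cells was 5.07 for ACAT2, 1.63 for HMGCS1, 1.41 for MVK, 4.80 for MVD, 2.14 for IDI1 and 6.52 for FDPS. It was 3.70 for FDFT1, 2.05 for SQLE and 2.65 for LSS. In the last part of the route it was 2.31 for CYP51A1, 2.41 for MSMO1, 2.59 for HSD17B7, 3.30 for EBP, 1.78 for SC5D and 3.96 for DHCR7. Among regulators and transport genes it was 1.31 for SREBF2, 2.99 for INSIG1, 2.98 for STARD4 and 2.12 for NPC2. Under TMM scaling the direction of SREBF2 in PLC cells turned, at 0.938. The intervals of NPC2, at 0.991, and of MVK, at 1.04, in PLC cells then included 1.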

How the results depend on the processing

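The number of genes past the limits depended on the limits. With limits of 25% higher and 20% lower in their place, 13 genes passed in Huh7 cells and 9 passed in opposite directions, and with limits of 2 and 0.5, 0 passed in Huh7, 10 in PLC cells and 0 in opposite directions. TMM scaling took the median log2 ratio in PLC cells from 0.75 to 0.59, while the number of genes with opposite intervals went from 19 to 17. Under TMM scaling, IDI1, SQLE and NSDHL no longer passed 1.5 in PLC cells and SC5D passed 0.67 in Huh7 cells. Other constants added to FPKM, other FPKM filters, DESeq2 size factors and removal of the trends with GC content and length kept each of these counts within 1.5 times its value. With 1 added to FPKM, MYLIP no longer passed 1.5 in Huh7 cells, and no gene past a limit changed sides. The difference between the lines was called for 14 genes by DESeq2 and, with the glucose term left out of edgeR, for 6. The shorter sterol element was found in the promoters of 4 genes and the full one in 1. The labels carry no replicate numbers to pair. The edgeR fit for glucose kept the line as a block and called 0 of the 27 genes, and without that block it also called 0. Leaving out a library was not possible with 1 library per condition. The spread between cultures is unknown, and the narrow counting intervals do not cover it.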
